A study of Homo sapiens with 8 samples.

Results

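Carriers that bring amino acids across the plasma membrane, or hold such a carrier there, were followed by ribosome profiling in HEK293T cells, a human embryonic kidney line immortalized with a viral antigen, SV40 large T. The 10 genes were SLC7A1, SLC7A3, SLC7A5, SLC7A11, SLC3A2, SLC38A1, SLC38A2, SLC1A4, SLC1A5 and SLC6A9, chosen by name with earlier results of these data known. They stand among 12235 genes listed in at least 1 library. Each gene was represented by its transcript with the highest value in a library. The cells were cultured overnight in a complete control medium (Suff) or in medium that lacked arginine (Arg-), leucine (Leu-) or methionine (Met-). All media were made with dialyzed serum and the same custom base, so the groups differed in the single amino acid that was not added back. Every medium was profiled with cycloheximide, which stalls elongating ribosomes before lysis, and again without it, which gave 8 libraries in all, 1 per condition. No condition had a replicate, so the differences below have no replicate check and no p-value is given. Each starved library was set against the Suff library of its own series, so the 3 comparisons within a series share that control.

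Cells take up amino acids through families of carriers with different substrates. SLC7A1 and SLC7A3 carry cationic amino acids such as arginine and lysine, SLC7A5 carries large neutral amino acids such as leucine and methionine, and SLC7A11 exchanges extracellular cystine for glutamate. SLC7A5 and SLC7A11 are light chains that reach the cell surface bound to the shared heavy chain SLC3A2. SLC38A1, SLC38A2, SLC1A4 and SLC1A5 carry small neutral amino acids such as glutamine, alanine and serine, and SLC6A9 takes up glycine. Many amino acid carriers are known target genes of ATF4, a transcription factor that is made when amino acids run short and that binds, with C/EBP partners, the amino acid response element.

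Values are RPKM and count ribosome footprints on coding exons, after division by coding length and library depth. A footprint level combines the amount of an mRNA with the number of ribosomes on it, and these cannot be told apart here. RPKM is also a share of a library, so a ratio says how a gene stood relative to the other genes and not how many footprints a cell held. Ratios are log2((RPKM + 1)/(RPKM in Suff + 1)), and a gene was called at a difference of at least 2-fold. Intervals in brackets are 95% and cover counting error only. For ratios they were computed on the reads without the pseudocount, so the interval of a gene with few reads is not centred on its ratio.

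Depth and listing differed between the series. The reads on coding sequence ranged from 538222 (Met-) to 6434043 (Leu-) with cycloheximide and from 1302523 (Met-) to 3139745 (Suff) without it. No transcript with cycloheximide was listed with fewer than 64 reads, against 5 reads without, and a gene that was not listed was therefore taken as under that number and not as 0. The upper bounds given for such a gene follow from that number and carry no counting error. The Met- library with cycloheximide listed 2021 genes and stood apart from the other 7, which listed 5466 to 11437. Its median log2 ratio to Suff over all genes was 0.89, against -0.23 to 0.32 in the other 5 comparisons. Among markers of cell type, VIM was listed in all 8 libraries, KRT18 in 6 and KRT8 in 4, while PTPRC of blood cells and ALB of hepatocytes were listed in none. With cycloheximide VIM was at 97.6 RPKM in Suff, 438 in Arg-, 317 in Leu- and 212 in Met-. Without it VIM was at 450, 626, 490 and 242 in that order. KRT18 with cycloheximide was under 21.3 in Suff and at 35.9 in Arg- and 37.9 in Leu-. COL1A1, a collagen of fibroblasts, was at 20.2 RPKM in Suff with cycloheximide, under 2.91 in Arg- and under 2.26 in Leu- of that series, and at 1.59 to 4.19 without cycloheximide. Suff with cycloheximide is the control of every ratio of its series, and the part of these marker levels in the results was not tested.

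The promoters of the carriers were searched for the core of the amino acid response element, TGATGNAA, on both strands and over 250 bases before and 50 after each RefSeq start (GRCh38.p14). The RefSeq table matched 8 of the 10 genes by symbol, with 14 starts among them, and SLC7A3 and SLC7A11 were not matched. The letters occurred in 5 of the 8 genes, at 1 start each, and in 4.46% of the 27305 genes of the table. Counted by start, they occurred in 5 of 14, against 3.62% of 35116. The stricter spelling TGATGCAA, which is contained in the first, occurred in SLC1A4 and SLC1A5 and in 1.08% of all genes. The matches are shown because they are the sequence feature that some of these carriers shared. Capitals mark the match, and SLC1A4 and SLC3A2 hold it on the opposite strand, so it reads there as its reverse complement.
SLC1A4 (chr2:64989382-64989409, + strand, match from 7 bases before the start): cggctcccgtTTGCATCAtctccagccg
SLC1A5 (chr19:46784894-46784921, - strand, match from 97 bases before the start): aggaagtggcTGATGCAAgctgtccagg
SLC38A1 (chr12:46266503-46266530, - strand, match from 4 bases before the start): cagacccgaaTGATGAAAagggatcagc
SLC7A1 (chr13:29595664-29595691, - strand, match from base 8 after the start): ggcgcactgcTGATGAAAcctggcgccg
SLC3A2 (chr11:62881726-62881748, + strand, match from base 38 after the start): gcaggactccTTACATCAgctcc
The remaining 3 matched genes, SLC7A5, SLC38A2 and SLC6A9, did not hold these letters in their windows. SLC1A4, SLC1A5, SLC38A1 and SLC3A2 have more than 1 start, and none of them held the letters at its outermost start. Which start served the measured transcripts was not tested. A match is a run of letters and not a measured binding site.

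Without cycloheximide all 10 carriers were listed in all 4 libraries and stood higher in each starved library than in Suff, whichever amino acid was missing. SLC7A5 was the exception to a difference of 2-fold, in Arg- and in Leu-. In that series 9 of 10 were at least 2-fold higher in Arg-, against 9.22% of all genes, 9 of 10 in Leu-, against 7.98%, and 10 of 10 in Met-, against 21.4%. No minimum level was applied to these counts. With a mean RPKM of at least 10 in the pair, the counts were 9 of 10 in Arg- (8.23% of all genes), 8 of 9 in Leu- (6.85%) and 9 of 9 in Met- (20.2%). SLC7A3, SLC7A11, SLC1A4 and SLC6A9 were under 10 RPKM in Suff and could pass that minimum only through the starved library. The 6 carriers with at least 10 RPKM in Suff gave 5 of 6 in Arg- (5.92% of all genes), 5 of 6 in Leu- (5% of all genes) and 6 of 6 in Met- (14.7%).

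With cycloheximide the same direction was seen on fewer genes. Of the carriers listed in both libraries of a pair, 5 of 6 were at least 2-fold higher in Arg- (16.6% of all genes), 5 of 6 in Leu- (12.1%) and 4 of 4 in Met- (46.7%). The last background is close to an even split, so the count in Met- with cycloheximide says little about these carriers. To be listed in that library a carrier needed at least 62.6 RPKM. SLC7A1, SLC3A2 and SLC1A5 were at 13.9, 35.7 and 60.2 RPKM in Suff of that series. They could therefore be compared only where Met- was higher. At a mean RPKM of at least 10 none was at least 2-fold lower in any of the 6 comparisons. Of all genes, 19.7% (Arg-), 7.28% (Leu-) and 9.79% (Met-) were lower with cycloheximide and 5.95%, 2.06% and 5.34% without it. In Met- with cycloheximide only SLC7A5 could have been called lower. The other carriers stood in Suff under the level that listing in Met- required. The median log2 ratio over the carriers compared was 2.55, 1.54 and 3.53 with cycloheximide and 2.03, 1.94 and 1.79 without, for Arg-, Leu- and Met- in that order, and over all 10 without a minimum it was 2.03, 1.92 and 1.98. The medians over all genes were -0.23, 0.022 and 0.89 and then -0.024, 0.14 and 0.32. SLC7A1, SLC3A2, SLC38A1, SLC38A2 and SLC1A5 were at least 2-fold higher in both series in Arg- (5 of 6, against 2.6% of all genes) and in Leu- (5 of 6, against 2.09%). In Met- the same held for SLC7A1, SLC7A5, SLC3A2 and SLC1A5 (4 of 4, against 10.2%). For SLC7A1, SLC3A2 and SLC1A5, listing in Met- with cycloheximide already required a level above Suff.

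**Figure D1:**
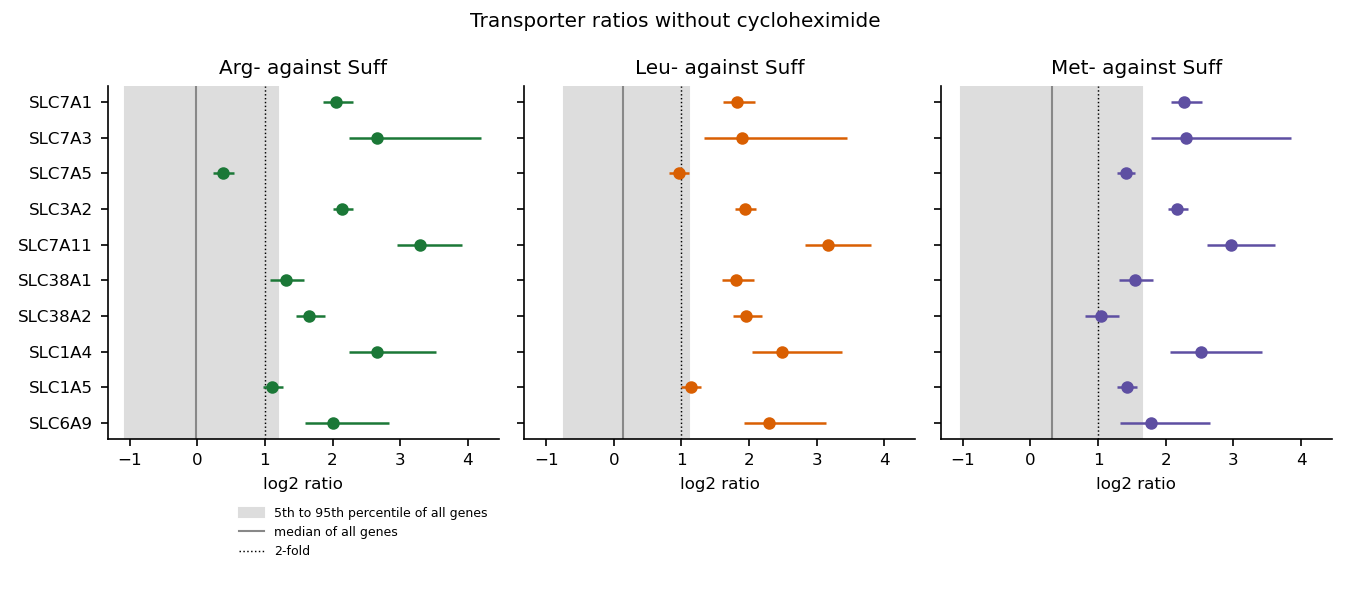
Log2 ratio to Suff of the 10 carriers without cycloheximide (points), with the 95% counting interval of the read ratio (lines), in Arg-, Leu- and Met-. The grey band spans the 5th to the 95th percentile of all genes compared, the grey line is their median and the dotted line marks 2-fold; SLC7A11 lies farthest right in each panel and SLC7A5 is at 0.39 in Arg-.

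**Figure D2:**
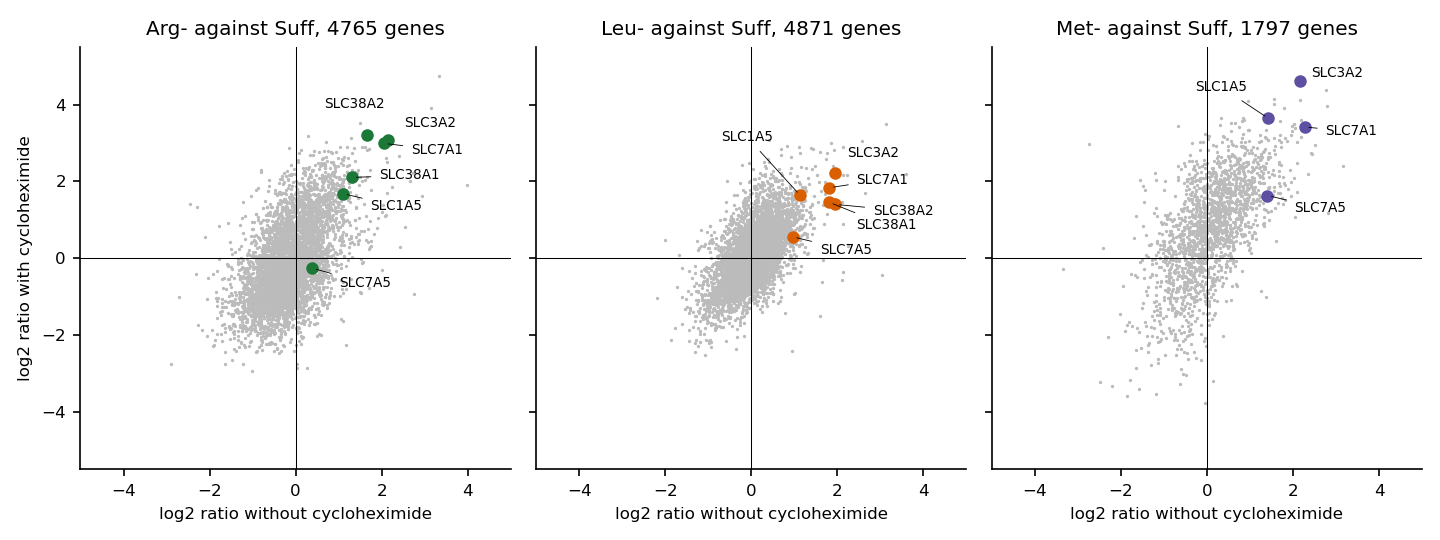
Log2 ratio to Suff with cycloheximide (y axis) against that without (x axis) for each gene compared in both series (grey points), with the carriers in colour. Every labelled carrier lies in the upper right part of its panel except SLC7A5 in Arg-, which lies near the origin, at 0.39 without and -0.26 with cycloheximide.

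The cationic carriers were higher in all 3 starvations without cycloheximide, and SLC7A1 in all 3 with it as well. SLC7A1 (chr13:29509414-29595688, GENCODE 44, GRCh38) was at 40.3 RPKM in Suff, 170 in Arg-, 145 in Leu- and 199 in Met- without cycloheximide. With cycloheximide it was at 13.9, 117, 52.0 and 158 RPKM in the same order. Suff was the lowest library in each series, and Met- the highest by RPKM. The log2 ratios to Suff without cycloheximide were 2.05 (1.86 to 2.31) in Arg-, 1.82 (1.61 to 2.08) in Leu- and 2.27 (2.08 to 2.53) in Met-, and with it 2.99 (2.72 to 3.45), 1.83 (1.54 to 2.29) and 3.41 (3.09 to 3.94). Between Met- and Arg- the log2 ratio was 0.22 (0.042 to 0.40) without and 0.43 (0.18 to 0.67) with cycloheximide, less than 2-fold in each and below the medians over all genes of 0.29 and 1.05. The order turned when the ratios to Suff were centred on the median of all genes, to 2.08 in Arg- and 1.96 in Met- without cycloheximide and 3.22 and 2.53 with it.

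SLC7A3 (chrX:70925579-70931125), the second cationic carrier, was the least abundant of the 10. Without cycloheximide it was at 2.05 RPKM in Suff, from 12 reads, and at 18.4 in Arg-, 10.4 in Leu- and 14.0 in Met-, from 55, 29 and 34 reads. With cycloheximide it was listed only in Arg- at 14.6 RPKM and in Leu- at 6.95, and the bound in Suff was 13.5. Arg- was therefore the highest of the libraries that listed it in each series. The log2 ratio of Arg- to Suff without cycloheximide was 2.66 (2.24 to 4.20), and only 0.186% of genes had a higher one. Arg- against Leu- was 0.76 (0.14 to 1.52) without and 0.97 (0.67 to 1.49) with cycloheximide. Met- against Arg- without cycloheximide was -0.36 (-1.05 to 0.26), within counting error.

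SLC7A5 (chr16:87830023-87869507), the carrier of leucine and methionine, was the most abundant of the 10 in Suff and had the lowest mean of 3 log2 ratios to it without cycloheximide, 0.92. It was at 170 RPKM in Suff, 223 in Arg-, 333 in Leu- and 453 in Met- without cycloheximide, and at 224, 186, 329 and 695 with it. The order Arg-, Leu-, Met- from low to high was the same in both series. In Arg- the log2 ratio to Suff was 0.39 (0.23 to 0.55) without and -0.26 (-0.39 to -0.14) with cycloheximide, so the sign differed and neither reached 2-fold. Centred on the median of all genes, these were 0.41 and -0.033. Leu- was at 0.96 (0.82 to 1.11) and 0.55 (0.45 to 0.66). Met- was past 2-fold in both, at 1.41 (1.28 to 1.55) and 1.63 (1.48 to 1.79), but with cycloheximide 28.5% of genes had a higher ratio. With the ratios centred on the median of all genes, the value with cycloheximide was 0.74 and no longer 2-fold. Met- exceeded Arg- by 1.02 (0.87 to 1.18) and 1.89 (1.76 to 2.04), which left 0.73 and 0.85 above the medians over all genes, under 2-fold in each. Of the footprint-length windows of 28 bases in its coding sequence, 19.9% also occur in other genes, pseudogenes such as SLC7A5P1 and SLC7A5P2 among them, so part of its count depends on how such reads were assigned.

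SLC3A2 (chr11:62856004-62888880), the heavy chain, was at 89.4 RPKM in Suff, 397 in Arg-, 345 in Leu- and 406 in Met- without cycloheximide. With cycloheximide it was at 35.7, 310, 169 and 901 RPKM. The 3 starved libraries lay well above Suff in each series. The log2 ratios were 2.14 (2.0 to 2.30), 1.94 (1.80 to 2.10) and 2.17 (2.03 to 2.34) without cycloheximide and 3.08 (2.90 to 3.35), 2.21 (2.02 to 2.47) and 4.62 (4.42 to 4.90) with it.

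SLC7A11 (chr4:138164097-138242349), the cystine exchanger, differed most from Suff of all 10 without cycloheximide. It was at 9.52 RPKM in Suff, 102 in Arg-, 93.6 in Leu- and 81.6 in Met-. The log2 ratios were 3.29 (2.96 to 3.91), 3.17 (2.83 to 3.80) and 2.97 (2.61 to 3.61), which ranked 9 of 10743, 6 of 10772 and 8 of 10653 genes from the highest. The 3 starved values differed by less than their counting error except between Arg- and Met-, where the log2 ratio of Met- to Arg- was -0.32 (-0.62 to -0.027). With cycloheximide it was not listed in Suff, where the bound was 16.6 RPKM, and stood at 89.0 in Arg- and 41.1 in Leu-. It was thus at least 5.35-fold higher in Arg- and at least 2.47-fold higher in Leu-. In Met- with cycloheximide it was under 79.1 RPKM, which is no measurement of a difference from Suff.

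**Figure D3:**
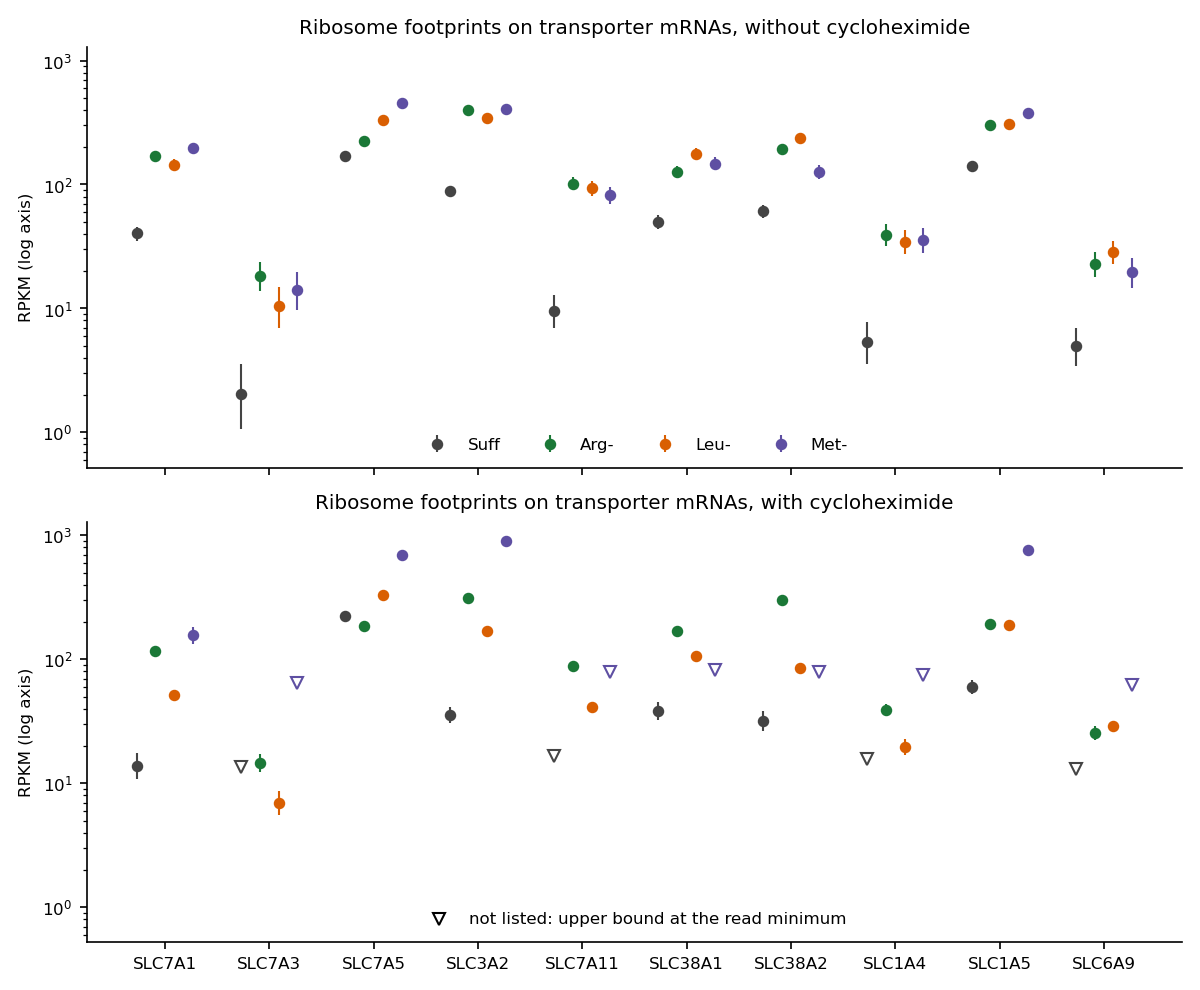
Footprint level of each carrier in RPKM (log axis) in the 4 libraries without (top) and with (bottom) cycloheximide, with 95% Poisson counting intervals. Open triangles mark libraries that did not list the gene, at the level its read minimum allows; without cycloheximide every Suff point lies below the 3 starved points of its gene.

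The heavy chain and its main light chain did not keep their ratio. SLC3A2 over SLC7A5 was 0.525 (0.470 to 0.587) in Suff, 1.78 (1.61 to 1.97) in Arg-, 1.04 (0.943 to 1.14) in Leu- and 0.895 (0.817 to 0.980) in Met- without cycloheximide. With cycloheximide the ratios were 0.159 (0.135 to 0.188), 1.67 (1.56 to 1.78), 0.514 (0.486 to 0.543) and 1.30 (1.17 to 1.44). Suff was lowest and Arg- highest in each series, and the intervals of those libraries did not overlap. Without cycloheximide 4 light chains that pair with SLC3A2 were listed, SLC7A5, SLC7A6, SLC7A8 and SLC7A11. SLC7A11 made up 4.23% of their summed RPKM in Suff, 29.4% in Arg-, 20.7% in Leu- and 13.8% in Met-. The heavy chain over this sum was 0.397 in Suff, 1.15 in Arg-, 0.765 in Leu- and 0.686 in Met-. SLC7A6, which exchanges cationic for neutral amino acids, was at 38.1 RPKM in Suff, 16.4 in Arg-, 19.4 in Leu- and 38.2 in Met-, and was named after its values were seen.

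**Figure D4:**
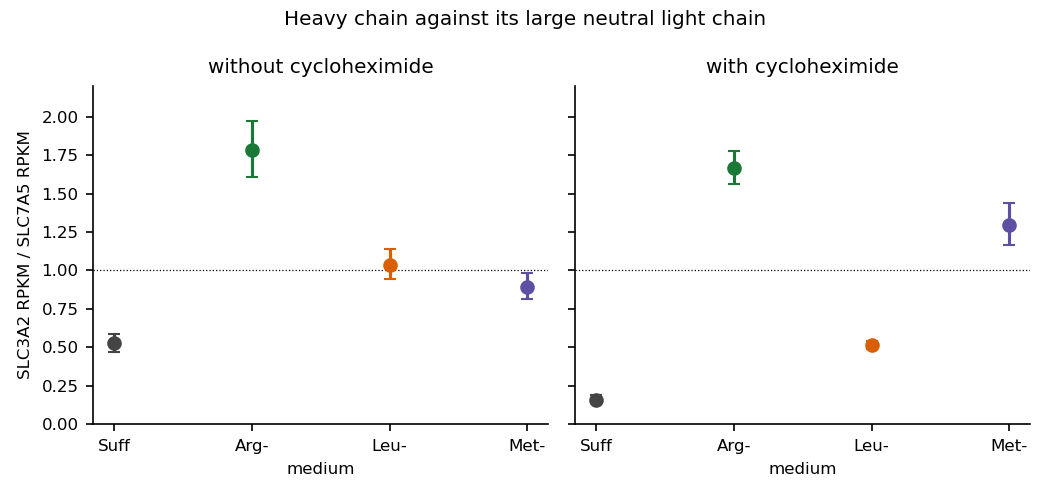
RPKM of SLC3A2 divided by that of SLC7A5 in each medium, without (left) and with (right) cycloheximide, with 95% counting intervals. The dotted line marks equal RPKM; Suff is lowest in both panels, at 0.525 and 0.159, and Arg- highest, at 1.78 and 1.67.

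The system A carriers SLC38A1 and SLC38A2, which take up small neutral amino acids with sodium, were higher in each starvation without cycloheximide, SLC38A2 least in Met-. SLC38A2 (chr12:46358188-46372773) was at 60.7 RPKM in Suff, 193 in Arg-, 239 in Leu- and 126 in Met- without cycloheximide. With cycloheximide it was at 31.9 in Suff, 302 in Arg- and 85.7 in Leu-, and was not listed in Met-, where the bound was 78.3. Met- was thus the lowest of the starved libraries in both series, with cycloheximide only just under Leu- by its bound. The log2 ratios to Suff without cycloheximide were 1.65 (1.46 to 1.88), 1.96 (1.77 to 2.18) and 1.04 (0.81 to 1.30), and centring on the median of all genes left 0.73 in Met-. In Arg- and Leu- with cycloheximide they were 3.20 (2.98 to 3.52) and 1.40 (1.15 to 1.71). Met- against Leu- without cycloheximide was -0.91 (-1.14 to -0.70), and 94.5% of genes had a higher ratio there. With cycloheximide Arg- was at least 3.86-fold and Leu- at least 1.09-fold higher than Met-. The bound carries no counting error, so the order of Leu- and Met- there is not secure.

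SLC38A1 (chr12:46183063-46270017) was at 49.9 RPKM in Suff, 126 in Arg-, 178 in Leu- and 147 in Met- without cycloheximide. With it the levels were 38.5 in Suff, 169 in Arg- and 107 in Leu-, and under 81.4 in Met-. The log2 ratios were 1.31 (1.08 to 1.58), 1.81 (1.60 to 2.07) and 1.54 (1.31 to 1.81) without and 2.10 (1.88 to 2.39) and 1.45 (1.22 to 1.74) with cycloheximide. The order of Arg- and Leu- was opposite in the 2 series for this gene and for SLC38A2. The transcript listed for SLC38A1 also differed between the series, with coding lengths of 1512 and 1461 bases, but not within them.

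The neutral exchangers of the SLC1 family were also higher in each starvation without cycloheximide, SLC1A4 by more than SLC1A5. SLC1A4 (chr2:64988477-65023865), which carries alanine, serine and cysteine, was at 5.38 RPKM in Suff, 39.2 in Arg-, 34.7 in Leu- and 35.5 in Met- without cycloheximide. The log2 ratios were 2.66 (2.24 to 3.54), 2.48 (2.05 to 3.37) and 2.52 (2.07 to 3.42). The 3 starved levels did not differ beyond their counting error. With cycloheximide SLC1A4 was under 15.7 RPKM in Suff, at 39.3 in Arg- and at 19.7 in Leu-, at least 2.51-fold and 1.26-fold higher. SLC1A5 (chr19:46774883-46788594), a main carrier of glutamine, was at 140 RPKM in Suff, 304 in Arg-, 310 in Leu- and 379 in Met- without cycloheximide and at 60.2, 195, 189 and 762 with it. The log2 ratios were 1.11 (0.97 to 1.26), 1.14 (0.99 to 1.29) and 1.43 (1.29 to 1.58) without and 1.68 (1.50 to 1.89), 1.63 (1.46 to 1.85) and 3.64 (3.45 to 3.88) with cycloheximide. Centring left 0.997 in Leu- without cycloheximide, just short of 2-fold. Arg- and Leu- differed by -0.029 (-0.17 to 0.12) and 0.043 (-0.053 to 0.14), within counting error in each series.

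SLC6A9 (chr1:43991500-44031467), the glycine carrier, was at 4.96 RPKM in Suff, 22.8 in Arg-, 28.3 in Leu- and 19.5 in Met- without cycloheximide. The log2 ratios were 2.0 (1.60 to 2.84), 2.30 (1.93 to 3.14) and 1.79 (1.33 to 2.65). With cycloheximide it was under 13.2 RPKM in Suff, at 25.5 in Arg- and at 28.9 in Leu-, at least 1.94-fold and 2.19-fold higher. In Met- with cycloheximide it was not listed, and the bound there was 62.6 RPKM. Leu- was the highest of the libraries that listed it in each series. Arg- and Leu- did not differ beyond their counting error, at -0.30 (-0.77 to 0.14) and -0.17 (-0.42 to 0.062).

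The starved libraries were also set against each other, which asks whether a carrier was tied to its own substrate. Without cycloheximide no carrier differed by 2-fold between Arg- and Leu-, where 1.21% of all genes were higher and 3.56% lower in Arg-, or between Met- and Leu-, where 10.1% were higher and 4.86% lower in Met-. After centring on the median of all genes, SLC38A2 was at -1.06 in Met- against Leu-, past 2-fold. Between Met- and Arg- only SLC7A5 was past 2-fold, higher in Met- (1 of 10, against 15.1% of all genes, and no longer 2-fold after centring on the median), and none was lower (3.57% of all genes). With cycloheximide SLC7A1, SLC7A11 and SLC38A2 were at least 2-fold higher in Arg- than in Leu- (3 of 10, against 4.15%), at 1.16 (1.03 to 1.31), 1.10 (0.94 to 1.30) and 1.81 (1.70 to 1.93). Of these only SLC7A1 carries arginine, and without cycloheximide the same differences were 0.23, 0.12 and -0.30. SLC7A3, the other cationic carrier, was short of 2-fold, at 0.97 with and 0.76 without cycloheximide. After centring, SLC7A3 (1.10) and SLC1A4 (1.09) were past 2-fold with cycloheximide as well, and SLC7A3 was at 0.91 without it. In Met- with cycloheximide, 4 of the 4 carriers listed were at least 2-fold higher than in Leu- (45.3% of all genes) and 3 of 4 than in Arg- (51.8%), so about as many genes in general were past 2-fold as not.

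The order of the carriers by level was different in Suff and in the starved libraries of the series without cycloheximide. With cycloheximide SLC7A5 and then SLC1A5 led in Suff and in Leu- alike. SLC3A2 led in Arg- and in Met- of that series, in Arg- with an interval that overlapped that of SLC38A2. Without cycloheximide SLC7A5 led in Suff, followed by SLC1A5, SLC3A2, SLC38A2, SLC38A1 and SLC7A1, and of these SLC38A2 and SLC38A1, and SLC38A1 and SLC7A1, overlapped in their counting intervals. SLC3A2 led in Arg-, ahead of SLC1A5 and SLC7A5. In Leu- SLC3A2, SLC7A5 and SLC1A5 led and each overlapped with the next, and in Met- SLC7A5, SLC3A2 and SLC1A5 did so. SLC7A3 was lowest in each of the 4 libraries, where it overlapped with SLC6A9 in all but Leu-. Together the 10 carriers took 0.0938% (0.0905 to 0.0972, Wilson) of all coding reads in Suff, 0.269% (0.261 to 0.277) in Arg-, 0.285% (0.276 to 0.293) in Leu- and 0.311% (0.302 to 0.321) in Met-. With cycloheximide the carriers listed took 0.0637% in Suff (6 listed), 0.238% in Arg- (10 listed), 0.167% in Leu- (10 listed) and 0.430% in Met- (4 listed).

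The median ratios of 3 other groups of carriers lay between -0.56 and 0.67 without cycloheximide, and their counts are read against the shares of all genes given above, 8.23% in Arg-, 6.85% in Leu- and 20.2% in Met-. Of 30 other plasma membrane amino acid carriers, 8 could be compared in Arg- without cycloheximide, and 1 was at least 2-fold higher (SLC43A1) and 2 lower (SLC1A3 and SLC7A6), with a median of -0.56. In Leu- 2 of 9 were higher (SLC43A1 and SLC38A3) and none lower (median 0.20), and in Met- 2 of 9 were higher (SLC43A1 and SLC7A8) and 1 lower (SLC36A4, median 0.0046). With cycloheximide 3 could be compared in Arg- and in Leu- and none in Met-, and SLC6A15, a carrier of branched-chain amino acids and proline, was higher in both while SLC36A4 was lower in Arg-. The groups were chosen with earlier results of these data known, and their genes are named after their values were seen. SLC43A1 carries large neutral amino acids. It was at 7.01 RPKM in Suff, 29.9 in Arg-, 28.6 in Leu- and 19.7 in Met-, and it too was under 10 RPKM in Suff. Of 8 lysosomal carriers, 1 of 6 was higher in Arg- without cycloheximide (SLC38A9, a lysosomal arginine sensor), 0 of 6 in Leu- and 3 of 7 in Met- (SLC38A9, CTNS and SLC15A4), and none was lower. With cycloheximide only MFSD12 could be compared, and it was lower in Arg- and higher in Met-. At 56.4 RPKM in Suff, it too may have been comparable in Met- only because Met- was higher.

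Of 28 plasma membrane carriers of other solutes, 19 could be compared without cycloheximide. None was higher in Arg- or Leu-, 3 were in Met- (ATP2B1, SLC12A2 and SLC16A1), and 2 were lower in Arg- (ATP1B3 and SLC5A6). In Met- with cycloheximide 7 of 7 were higher, with a median of 1.43, as were 46.7% of all genes and the 4 of 4 carriers above. The minimum of 64 reads applied to these genes too. A gene low in Suff could thus be compared there only where Met- was higher. SLC16A1, which carries lactate and other monocarboxylates, was the only gene of these 3 groups past 2-fold in the same direction in both series for a starvation. It was at 183 RPKM in Suff and 588 in Met- without cycloheximide (log2 ratio 1.68), and at 46.9 and 230 with it (2.27).

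**Figure D5:**
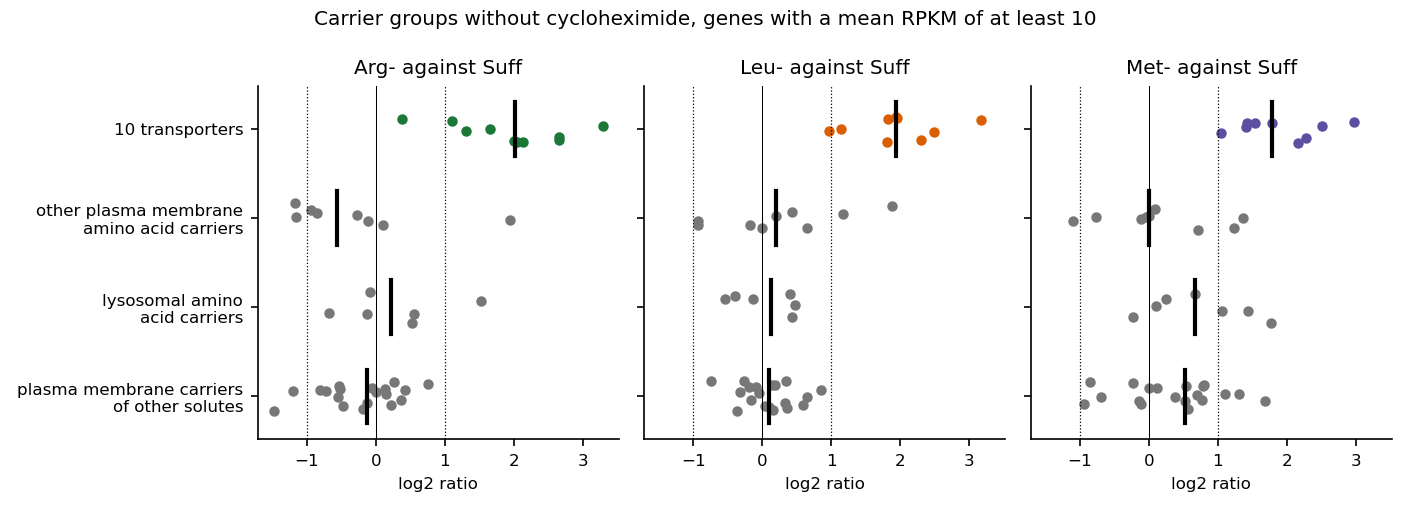
Log2 ratio to Suff without cycloheximide of each gene (points) in 4 groups of carriers, for the genes past the minimum of 10 RPKM, with the group median as a bar. The medians of the 10, 9 and 9 carriers compared are 2.03, 1.94 and 1.79, and those of the other groups lie between -0.56 and 0.67; dotted lines mark 2-fold.

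The genes nearest to a carrier were sought by the Euclidean distance over 5 log2 ratios to Suff, those of Arg-, Leu- and Met- without and of Arg- and Leu- with cycloheximide, across 4696 genes. Nearest to SLC3A2, the carrier with the highest mean ratio among those with all 5, were SLC7A1 (distance 0.43), SESN2, a stress-induced leucine sensor (0.83), and HADHA, of mitochondrial fatty acid oxidation (0.91). Nearest to SLC7A5, the lowest, were NUDCD2 (0.26), KMT5C (0.33) and MARK3 (0.33). SLC7A11 had the highest mean ratio of all 10 without cycloheximide, 3.14, but not all 5 ratios. Over its 3 ratios without cycloheximide, a search added after the values were seen, the nearest named gene among 7182 was ASNS, asparagine synthetase (0.47), with log2 ratios of 3.32 in Arg-, 3.14 in Leu- and 2.51 in Met-. These ratios share their Suff libraries, so the distances are a description.

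The proteins were rich in leucine and poor in arginine. Leucine made up a median of 14.1% of the residues of the 10 proteins, against 9.76% over the 11602 proteins of listed genes, and all 10 lay above the latter. Arginine made up 3.47%, against 5.64%, with all 10 below, and methionine 2.77%, against 2.12%, with 3 of the 10 (SLC3A2, SLC7A5 and SLC1A5) below. SLC7A5, with the lowest mean ratio, held 14.0% leucine, 1.97% methionine and 2.37% arginine, and SLC7A11, with the highest, held 12.4%, 2.79% and 3.99%. Pairwise identity in aligned protein sequence was 63.8% for SLC7A1 and SLC7A3, 62.2% for SLC1A4 and SLC1A5, 52.7% for SLC38A1 and SLC38A2 and 46.3% for SLC7A5 and SLC7A11. In the coding sequences no window of 28 bases was shared with another gene for 7 of the 10. The exceptions were SLC7A5, given above, SLC3A2 with 0.749% of windows and SLC6A9 with 0.0955%.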

How the data were processed

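Ribosome-protected fragments of HEK293T cells were measured in 8 libraries, 1 per medium and series. The authors aligned trimmed reads to the GRCh38 transcriptome with Bowtie and deposited RPKM per Ensembl transcript. For the trimming their processing notes name cutadapt, while the methods name a Perl script and Trimmomatic. The annotation release was not given in the sources used here. Transcripts were matched to symbols and coding lengths of GENCODE 44 (96.7% to 97.1% matched). RPKM times coding length (without the stop codon with cycloheximide, with it otherwise) fell on whole reads, within 0.01 of a read, for 97.2% to 97.4% of matched transcripts, which gave the depths and read numbers. Ratios used a pseudocount of 1 RPKM, genes listed in both libraries and a mean RPKM of at least 10, unless another minimum is named. The rank of a carrier's ratio, and the share of genes with a higher ratio, were taken over all genes listed in both libraries, without a minimum. Intervals are exact conditional binomial for ratios, exact Poisson for levels and Wilson for shares, and cover counting error only, since reads need not be independent molecules. The scripts ran in Python 3.11.15 with numpy 2.4.6, pandas 2.3.3, scipy 1.17.1 and Biopython 1.88 and were tested on simulated data. The 10 carriers and the lists were chosen with earlier results of these data known. Genes outside the 10 were named where they passed 2-fold in the same direction in both series for a starvation, or were among the 3 nearest to the carrier with the highest or lowest mean ratio, and other names are marked in the text. Other settings tried were 0.1 RPKM as pseudocount, 50 RPKM or none as minimum, absent genes as 0, summed transcripts, 1 transcript per gene by the mean of the pair, and centring on the median. A minimum of 10 RPKM in Suff was added after seeing the data. The counts of carriers of other solutes in Arg- and Leu- with cycloheximide are not reported here.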

Additional observations from a re-analysis of the deposited data

Results flagged for a closer look

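The log2 ratio of 4 carriers had opposite signs with and without cycloheximide, and the difference was not tested because each condition had 1 library. SLC7A5 in Arg- against Suff was at -0.26 with and 0.39 without cycloheximide, and neither interval included 0. The medians over all genes there were -0.23 and -0.024, and centring on them left SLC7A5 at -0.033 and 0.41. With cycloheximide it was therefore level with the median gene. Between Arg- and Leu-, SLC38A2 was at 1.81 with and -0.30 without cycloheximide and SLC38A1 at 0.65 and -0.50, again with no interval that included 0. SLC1A5 was at 0.043 and -0.029 in the same comparison, both within counting error of 0. After centring, SLC1A5 was at 0.17 and 0.12, so its sign no longer differed. SLC38A2 (1.93 and -0.15) and SLC38A1 (0.78 and -0.35) still had opposite signs.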

How the results depend on the processing

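Of 333 recomputed log2 ratios of single carriers, 320 moved by less than their counting interval, 0 changed sign from past 2-fold, and 298 of the 301 that started past 2-fold stayed there. The 3 that did not were SLC7A5 in Met- with cycloheximide (0.74), SLC1A5 in Leu- (0.997) and SLC38A2 in Met- (0.73) without it, each after centring on the median of all genes. Other minima, and absent genes as 0, only select which carriers are compared and cannot change such a ratio. Taking 1 transcript per gene could not change it either, since each carrier had the same transcript in both libraries of a pair. Much of these totals was therefore fixed in advance. Summed transcripts left all 44 of their ratios within their interval. The pseudocount left all 44 of its ratios within their interval, while centring moved 13 past it and left 31 within. Counting absent genes as 0 with cycloheximide gave 8 carriers of 9 at least 2-fold higher in Arg- (median 3.08) and, in Met-, 2 of 6 at least 2-fold lower (median 2.52). Both are genes that were not listed in Met-, where their bounds lie above their levels in Suff. Centring gave medians over the carriers of 2.64 in Met- with and 1.47 without cycloheximide. A minimum of 50 RPKM gave medians of 1.65 in Arg- and 1.48 in Met- without cycloheximide. A minimum of 10 RPKM in Suff, chosen after seeing the data, gave 5 of 6 higher in Arg- (median 1.48) and 5 of 6 in Leu-, and a median of 1.48 in Met-. No replicate numbers pair libraries, as each condition has 1, and a fit with the series as a block was not run. The series are given side by side. They differ by cycloheximide, by the read minimum and by the coding length behind RPKM, and the paper describes profiling without the drug as a repeat experiment. These differences cannot be told apart here. With 538222 reads and a minimum of 64, Met- with cycloheximide could not measure 6 of the 10 carriers.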
